A study of Homo sapiens with 9 samples.

Results

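The contrast described here set the mean of the siSIRT6 group and the siKDM5C group against the control group in PANC-1 cells. It averages both knockdowns, so a change in either of them can move it. All 9 libraries of the series entered it, 6 from knockdown cells and 3 from controls. It was fitted to every gene that reached 1 FPKM in 3 or more libraries, which kept 16135 of the 36753 gene identifiers. FPKM is the number of fragments of a gene scaled to its length and to the reads of the library, so levels can be compared between genes. PANC-1 cells are a long-established culture line of a human ductal pancreatic tumour. The siSIRT6 group received short interfering RNA (siRNA) against SIRT6, the siKDM5C group siRNA against KDM5C, and the control group what the column headers call siNC. Each group held 3 libraries, collected 48 hours after transfection. All cells were transfected and no untransfected group was analysed here, so an effect of the control siRNA and an effect shared by both knockdowns cannot be told apart in any value that follows. Whether replicates came from separate cultures is not stated, so p-values measure only the spread between these samples, which may be technical.

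SIRT6 is a nuclear enzyme that uses NAD to remove acetyl groups from histone H3 and other proteins, and it is known as a brake on transcription driven by NF-kB. KDM5C removes methyl groups from lysine 4 of histone H3, a mark of promoters and enhancers. An siRNA is loaded into an Argonaute protein and guides it to matching transcripts, and double-stranded RNA of any sequence can also be bound by sensors such as RIG-I, MDA5 and PKR, which act on interferon and NF-kB target genes.

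SIRT6 stood at 6.20, 5.17 and 7.17 FPKM in the control libraries, 0.795, 0.509 and 0.487 in siSIRT6 and 5.05, 4.60 and 5.39 in siKDM5C. KDM5C stood at 18.0, 18.4 and 18.8 FPKM in control, 17.9, 17.6 and 17.9 in siSIRT6 and 3.65, 3.31 and 3.89 in siKDM5C. Each target was therefore lowest in the libraries labelled for it. Both targets entered the pooled contrast as falls, SIRT6 by 1.21 and KDM5C by 1.06 on the log2 scale, and each value was carried mainly by 1 knockdown. KDM5C shows the limit of a rule on order alone, since its siSIRT6 libraries lay only just below the controls.

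The steps of the FPKM values gave 18134907 to 26825383 reads in genes per library. A gene of 1 kilobase with no read could hold up to 0.111 to 0.165 FPKM at these depths (3 reads, counting error only). In a principal component analysis the first axis (45.5% of variance) put the controls at -36.1 to -37.1 and the 6 knockdown libraries at 16.7 to 20, and the second axis (27.8%) parted the knockdowns. Some library properties moved with the contrast. Transcripts of mitochondrial DNA took 8.13% to 9.85% of reads in control against 5.68% to 6.93% in the knockdowns, and the deposited FPKM summed to 448575 to 473190 in control against 415892 to 423521 in the knockdowns. Their part in the results was not tested, apart from the rescaled counts given below. Of the line's markers, the keratins and vimentin were high, and the list of 6 summed to 1628 to 1801 FPKM in control, 2194 to 2358 in siSIRT6 and 1436 to 1791 in siKDM5C, with 1 member below 1 FPKM in every library. All 4 endothelial markers, 4 of 5 leukocyte markers and all 3 markers of exocrine and islet cells with values were below 1 FPKM in every library. The leukocyte list summed to 2.87 to 3.28 FPKM in control, 1.70 to 1.84 in siSIRT6 and 1.92 to 2.17 in siKDM5C.

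The pooled contrast asked which transcripts differed from the control in the mean of the knockdowns. Most tested members of the lists of NF-kB components, inflammatory genes, interferon-stimulated genes, p53 targets and splicing factors fell. Most tested matrix and actomyosin genes rose. Of the 16135 genes tested, 4150 rose (25.7%) and 4561 fell (28.3%), so 8711 (54.0%) passed an adjusted p of 0.05 (limma, Benjamini-Hochberg over all genes). Among them 268 rises and 235 falls were of 1 log2 or more. The median over all tested genes was -0.04, and -0.05 and -0.02 in siSIRT6 and siKDM5C. Taken singly against the same controls, siSIRT6 gave 8194 calls (50.8%) and siKDM5C 8308 calls (51.5%), which share the 3 control libraries and are not independent.

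A pooled call can come from 1 knockdown alone. The genes named shared from here on passed the pooled test and had all 6 knockdown libraries above, or all 6 below, all 3 controls. There were 3009 shared rises (18.6% of the genes tested) and 2987 shared falls (18.5%), 5996 in all (37.2%). Their median sizes were 0.47 and 0.45 log2, and 260 and 210 of them reached 1 log2. Only 2509 of the shared rises and 2350 of the shared falls also passed against control in each knockdown. The remaining shared genes rest on the pooled test and the order of the libraries. The knockdowns themselves differed for 6442 genes (39.9%) in the direct test of siSIRT6 against siKDM5C. That test called 1187 of the shared rises (39.4%) and 1059 of the shared falls (35.5%), so a common direction often came with a different size. Among pooled calls outside the shared class the knockdowns differed for 771 of 1141 rises (67.6%) and 1007 of 1574 falls (64.0%).

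**Figure D1:**
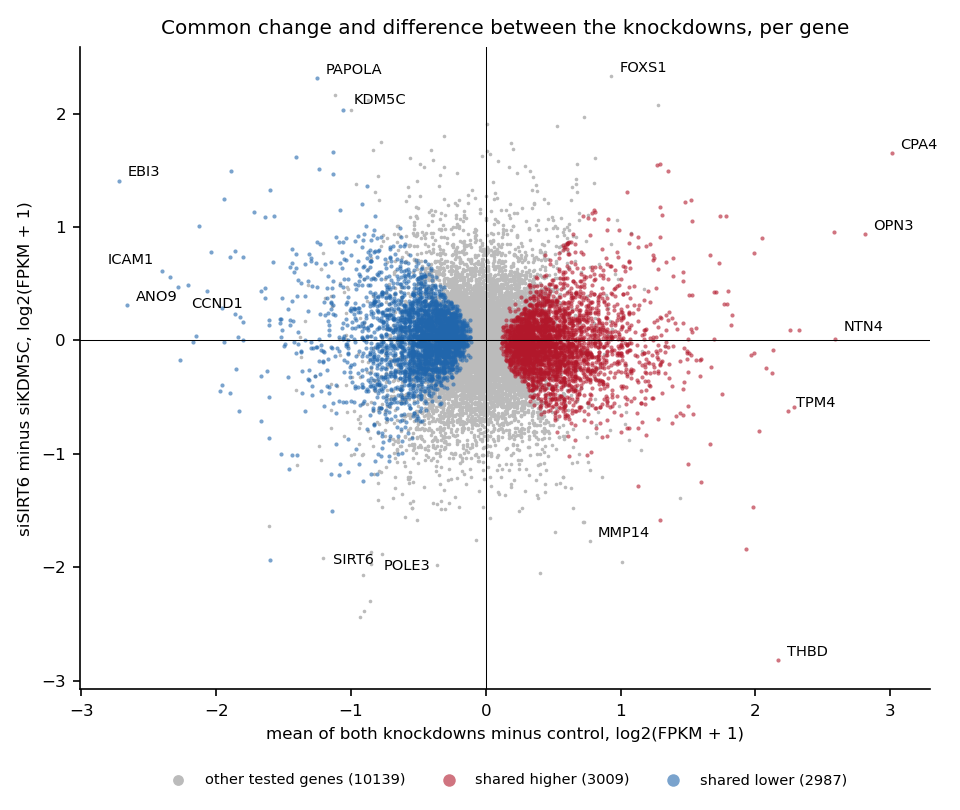
Each point is 1 of the 16135 tested genes, with the pooled difference from control on the x axis and the difference between the knockdowns on the y axis, both as log2(FPKM + 1). Red and blue mark the 3009 shared rises and 2987 shared falls, and genes such as NTN4 lie on the horizontal line while THBD and PAPOLA lie far from it.

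Shared genes were more often protein coding than the genes tested, 81.5% of the rises and 79.5% of the falls against 71.2%. Their exons were longer, with medians of 4631 and 4341 bases against 3715 bases over all tested genes. Rises had a median GC content of 51.4% in the longest transcript and falls 47.2%, against 49.1% over all. These features were compared without a test, and longer genes also gather more reads. Of the shared rises 22.5% overlapped another shared rise on the opposite strand, and of the shared falls 20.7% another shared fall. No such share was computed over all tested genes, so these shares cannot be called particular to the shared genes. The strand setting of the counting is not known here, so reads of such pairs could not be told apart. At the threshold itself, the last genes inside had adjusted p = 0.0499 with log2 differences of 0.56, -1.04 and 0.16, and the first 3 genes outside, reaching 0.0501, had differences of -0.23, 0.11 and 0.23 (limma).

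Among the rises that passed in each knockdown, NTN4 was nearly equal in both. NTN4, which encodes the secreted basement membrane protein netrin-4, was at 12.1, 12.0 and 11.4 FPKM in control, 76.1, 76.3 and 76.8 in siSIRT6 and 77.0, 78.2 and 73.1 in siKDM5C. The 6 knockdown libraries were 6.46 and 6.43 times the control mean by group, with a pooled log2 difference of 2.59 (SE 0.04, adjusted p = 1.51e-08, limma) and 0.01 (SE 0.05) between the knockdowns. KIF1C, a kinesin motor that carries vesicles, was at 5.08, 5.43 and 5.76 FPKM in control, 26.4, 25.9 and 26.5 in siSIRT6 and 28.9, 25.7 and 28.7 in siKDM5C (pooled 2.13, SE 0.05). OGFR, the opioid growth factor receptor, was at 3.51, 3.89 and 3.92 FPKM in control, 14.2, 14.5 and 14.6 in siSIRT6 and 14.4, 12.9 and 15.8 in siKDM5C (pooled 1.69, SE 0.06). In these 3 genes the knockdown groups overlapped each other and lay far above the controls.

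Other leading rises had the same direction and unequal size. CPA4, a secreted carboxypeptidase, was at 0.833, 1.34 and 1.04 FPKM in control, 28.8, 28.5 and 27.9 in siSIRT6 and 8.02, 8.62 and 8.44 in siKDM5C. The pooled difference of CPA4 was 3.01 (SE 0.07), and siSIRT6 exceeded siKDM5C by 1.65 log2 (adjusted p = 4.31e-06, limma). OPN3, an opsin, was at 4.37, 4.03 and 3.05 FPKM in control, 45.3, 45.4 and 46.0 in siSIRT6 and 21.5, 25.9 and 22.7 in siKDM5C. KMO, kynurenine 3-monooxygenase of tryptophan breakdown, overlaps OPN3 on the opposite strand of chromosome 1 and went from 1.62 ± 0.249 FPKM to 20.8 ± 0.274 and 10.2 ± 1.37 (SD, n = 3, here and for all FPKM means), so the pair cannot be taken as separate rises. TPM4, a tropomyosin of actin filaments, leaned the other way, with 7.84, 8.19 and 7.97 FPKM in control, 33.5, 33.0 and 33.2 in siSIRT6 and 51.1, 55.1 and 48.4 in siKDM5C. AREG, the EGF receptor ligand amphiregulin, was at 4.18, 4.50 and 4.37 FPKM in control, 14.6, 16.0 and 16.1 in siSIRT6 and 29.6, 26.7 and 27.2 in siKDM5C. Its neighbour on chromosome 4, the ligand gene EREG, was a shared rise as well, from 11.3 ± 2.58 FPKM to 32.9 ± 0.742 and 27.9 ± 6.98.

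Further leading rises were BICD2, KIF3C, RRBP1, FAM3C, WNT9A, LAMA4 and THBS1. BICD2, an adaptor that links cargo to dynein, went from 1.70 ± 0.203 FPKM to 9.59 ± 0.239 and 11.9 ± 0.790. KIF3C, a kinesin-2 motor, rose from 2.44 ± 0.121 FPKM to 12.2 ± 0.404 and 10.4 ± 0.668. RRBP1, a ribosome-binding protein of the endoplasmic reticulum, rose from 13.7 ± 0.713 FPKM to 55.8 ± 0.298 and 44.7 ± 2.66. FAM3C, a secreted cytokine-like protein, rose from 19.9 ± 1.98 FPKM to 76.8 ± 1.71 and 84.3 ± 10.3, and the ligand gene WNT9A from 2.67 ± 0.152 to 12.6 ± 0.0740 and 11.4 ± 0.813. LAMA4, the laminin alpha 4 chain, was at 0.271, 0.254 and 0.215 FPKM in control, 3.70, 3.78 and 3.84 in siSIRT6 and 4.14, 4.16 and 4.16 in siKDM5C. LAMA4 passed the filter on low values only through the knockdown libraries, and its pooled difference of 1.99 became 3.55 with a pseudocount of 0.1. THBS1, thrombospondin-1, was at 2.63, 2.47 and 2.29 FPKM in control, 16.7, 16.9 and 17.1 in siSIRT6 and 8.97, 9.50 and 10.1 in siKDM5C, and FSIP1, which overlaps it on the opposite strand, was a shared rise too (pooled 1.25, SE 0.09).

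**Figure D2:**
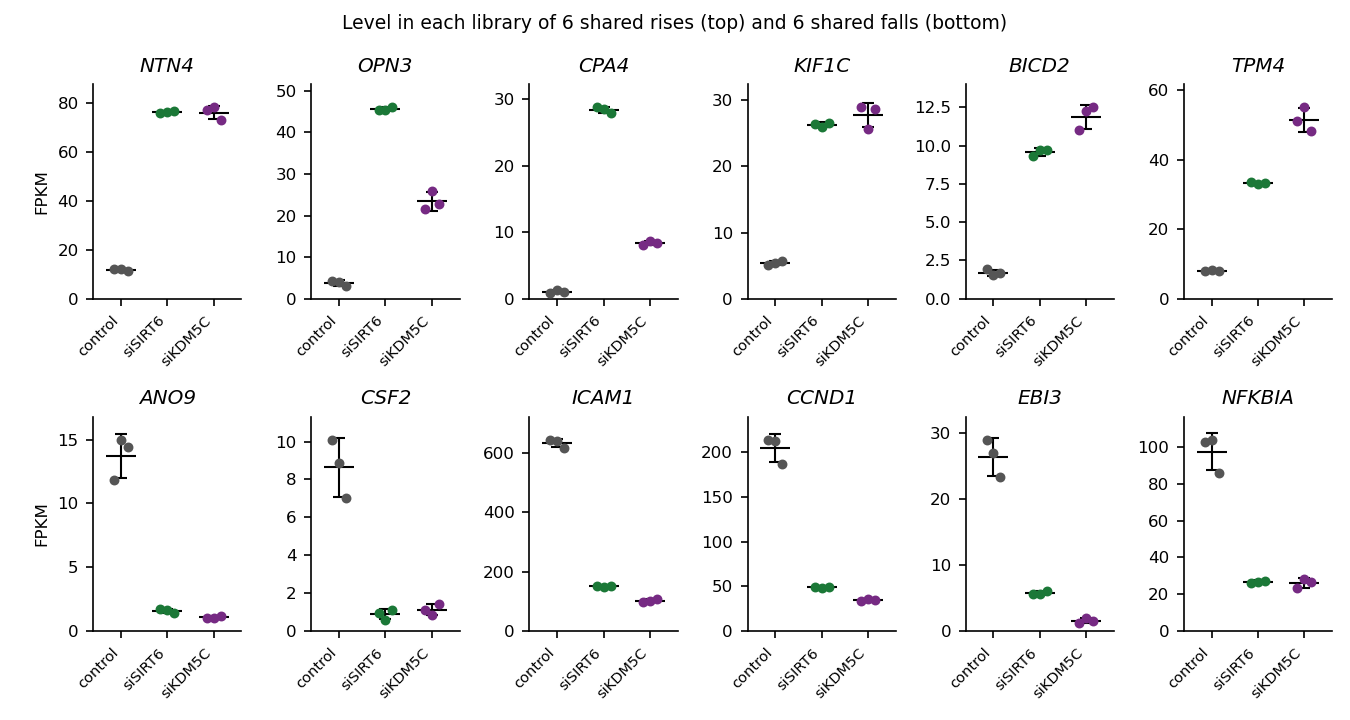
Each panel gives the FPKM of 1 gene in the 9 libraries, as points, with the mean and SD of each group of 3 as bars. In each panel the 6 knockdown points lie on 1 side of the 3 control points, and the knockdowns lie close together for NTN4, KIF1C and NFKBIA and apart for OPN3, CPA4 and EBI3.

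The leading falls included ICAM1, CSF2, EBI3 and IL23A. ICAM1, an adhesion receptor for leukocytes, was at 644, 639 and 616 FPKM in control, 150.2, 149 and 152 in siSIRT6 and 96.4, 102 and 108 in siKDM5C. The pooled difference of ICAM1 was -2.34 (SE 0.05, adjusted p = 5.29e-08, limma). ICAM4, which begins 351 bases beyond ICAM1 on the same strand, fell from 4.78 ± 0.243 FPKM to 0.720 ± 0.0980 and 0.478 ± 0.220, and passed the filter through the controls. CSF2, the granulocyte-macrophage colony-stimulating factor, was at 10.1, 8.85 and 7.00 FPKM in control, 0.968, 0.591 and 1.08 in siSIRT6 and 1.13, 0.823 and 1.42 in siKDM5C, on 9 to 145 reads per library. EBI3, a subunit shared by cytokines of the interleukin-12 family, went from 26.4 ± 2.90 FPKM to 5.77 ± 0.260 and 1.56 ± 0.407. IL23A, another subunit of that family, went from 5.98 ± 0.205 FPKM to 0.583 ± 0.154 and 1.43 ± 0.0600. EBI3 was lower in siKDM5C and IL23A lower in siSIRT6, and both differences between the knockdowns passed (1.41 and -0.62 log2).

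The chemokine genes CCL20, CXCL16 and CX3CL1 were among these falls. CCL20 was at 11.6, 11.3 and 9.95 FPKM in control, 2.33, 1.59 and 2.28 in siSIRT6 and 1.05, 1.39 and 1.11 in siKDM5C. CXCL16 was at 5.17, 5.43 and 5.87 FPKM in control, 1.26, 1.58 and 1.29 in siSIRT6 and 1.14, 1.26 and 1.02 in siKDM5C. CX3CL1, whose product is held on the membrane, fell from 15.4 ± 0.113 FPKM to 5.10 ± 0.0538 and 2.66 ± 0.295. PTGES, a synthase of prostaglandin E2, fell from 12.8 ± 0.667 FPKM to 3.48 ± 0.306 and 1.22 ± 0.0870. SOCS1, a feedback inhibitor of cytokine receptors, went from 5.73 ± 0.385 FPKM to 1.37 ± 0.143 and 1.43 ± 0.220. The knockdowns overlapped for SOCS1, with a difference of -0.03.

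ANO9, SLCO4A1, CA8, CCND1 and LTO1 were leading falls as well. ANO9, a membrane protein of the anoctamin family, went from 13.7 ± 1.72 FPKM to 1.57 ± 0.169 and 1.08 ± 0.0766, a pooled difference of -2.66 (SE 0.08). SLCO4A1, an organic anion transporter, fell by 1.67 log2. CA8, a carbonic anhydrase relative, fell from 27.7 ± 1.87 to 9.37 ± 0.289 and 5.00 ± 0.191. CCND1, cyclin D1, was at 214, 213 and 187 FPKM in control, 48.9, 48.5 and 48.8 in siSIRT6 and 33.5, 36.0 and 35.0 in siKDM5C (pooled -2.28, SE 0.05). LTO1, which overlaps CCND1 on the opposite strand of chromosome 11, was at 27.3, 26.6 and 26.6 FPKM in control, 7.55, 7.48 and 7.36 in siSIRT6 and 7.10, 6.13 and 6.54 in siKDM5C. Reads of CCND1 and LTO1 could not be told apart without the strand.

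NF-kB is a family of dimeric transcription factors held in the cytoplasm by IkB proteins until the IKK kinases mark those for breakdown, and several of its inhibitors are also its targets. Of the 25 listed genes for subunits, inhibitors and feedback regulators, 19 fell, 1 rose and 5 did not pass, and 18 of the falls were shared. The list's median pooled difference was -0.45, and -0.39 and -0.48 by knockdown, against -0.04 over all genes. NFKBIA, the IkB alpha inhibitor, was at 103, 104 and 86.0 FPKM in control, 25.9, 26.7 and 27.4 in siSIRT6 and 23.4, 28.5 and 26.6 in siKDM5C, a pooled difference of -1.84 (SE 0.08). TNFAIP3, the A20 ubiquitin-editing enzyme that ends NF-kB signalling, was at 8.68, 9.46 and 8.75 FPKM in control, 3.17, 2.80 and 2.71 in siSIRT6 and 2.74, 2.56 and 2.85 in siKDM5C. TRAF1, an adaptor of TNF receptors, was at 19.8, 20.9 and 19.5 FPKM in control, 8.69, 8.86 and 8.48 in siSIRT6 and 5.10, 4.94 and 6.18 in siKDM5C. The knockdowns overlapped for NFKBIA and TNFAIP3 (differences of 0.03 and 0.07 log2) and TRAF1 was lower in siKDM5C (adjusted p = 3.93e-04, limma).

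The subunits themselves, named here for their role and outside the rule for named genes except NFKB1, were shared falls of smaller size. NFKB1 was at 11.3, 11.8 and 11.9 FPKM in control, 5.48, 5.63 and 5.22 in siSIRT6 and 7.25, 7.50 and 7.30 in siKDM5C. NFKB2 fell by 0.85, RELB by 0.66, REL by 0.40 and RELA by 0.29 on the log2 scale, each below all controls in all 6 libraries. Of the IKK subunits, also named for their role, CHUK fell by 0.49, while IKBKB (-0.14, adjusted p = 0.0669) and IKBKG (-0.19, adjusted p = 0.146) did not pass in limma. The 1 rise was TRAF3, an adaptor that holds back the alternative NF-kB pathway, from 4.68 ± 0.335 FPKM to 9.55 ± 0.178 and 9.06 ± 0.672.

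Of 34 listed inflammatory genes driven by NF-kB, 19 passed the filter on low values, among them 14 that fell (13 shared), 2 that rose and 3 that did not pass. The median over those tested was -1.02, with -1.08 in siSIRT6 and -1.05 in siKDM5C. CSF1, the macrophage colony-stimulating factor, was at 63.1, 61.7 and 63.7 FPKM in control, 27.2, 27.7 and 28.3 in siSIRT6 and 12.4, 11.3 and 12.7 in siKDM5C. SOD2, mitochondrial superoxide dismutase, was at 41.7, 42.4 and 41.7 FPKM in control, 26.8, 27.8 and 27.7 in siSIRT6 and 8.22, 8.59 and 7.93 in siKDM5C. Both were lower in siKDM5C than in siSIRT6, and the direct test of the knockdowns passed for 12 of the 19. The members against the list were the cytokine TNFSF15, from 1.57, 1.39 and 1.31 FPKM to 3.79, 3.64 and 3.73 in siSIRT6 and 8.77, 10.2 and 8.22 in siKDM5C, and the chemokine CXCL1. CXCL1 was at 20.5, 19.8 and 16.6 FPKM in control, 38.9, 41.9 and 39.6 in siSIRT6 and 15.1, 16.4 and 17.6 in siKDM5C, so its pooled rise of 0.43 came from siSIRT6 alone.

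**Figure D3:**
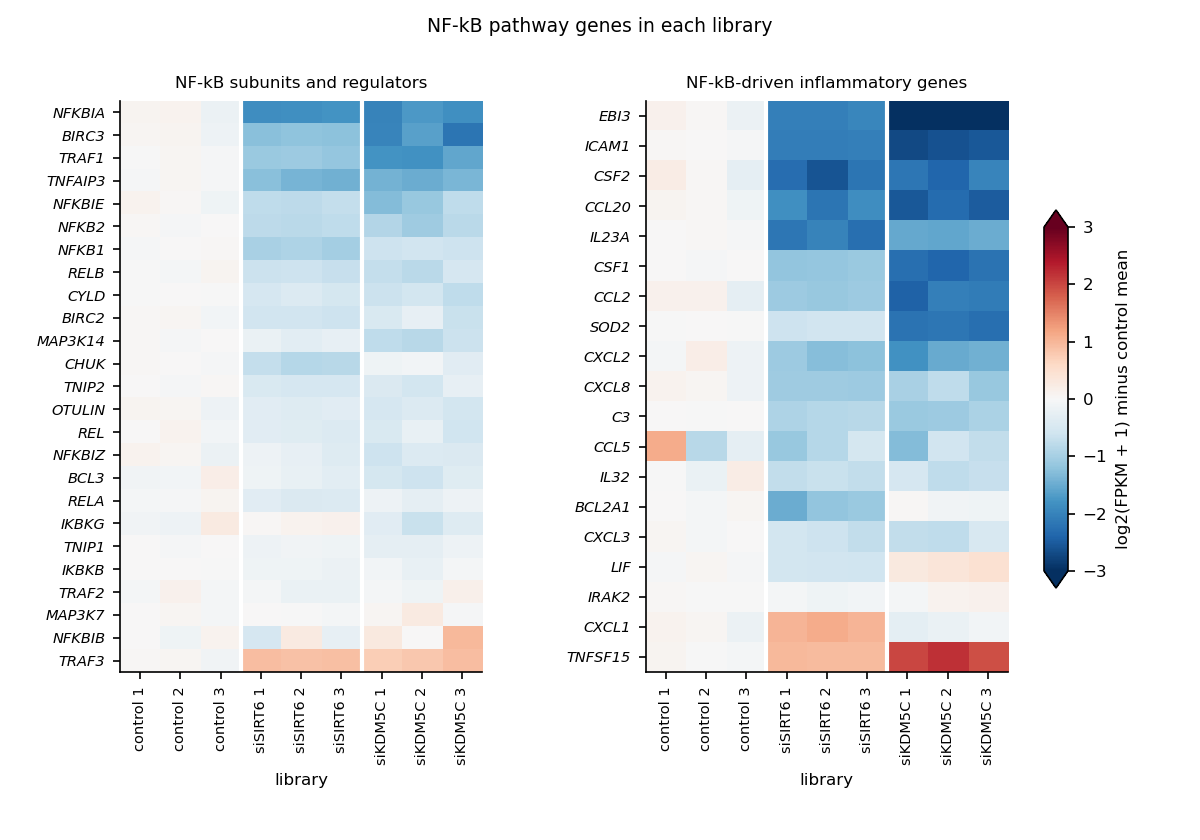
Colour gives log2(FPKM + 1) of each gene in each library minus the mean of the 3 controls, with the scale ending at 3 each way. Blue runs through the 6 knockdown columns for most genes of both lists, TRAF3 and TNFSF15 are red in all 6, and CXCL1 is red in siSIRT6 only.

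The promoters of ICAM1, NFKBIA, TNFAIP3 and CCL20 are shown because these 4 shared falls are well-known NF-kB targets. Each is the 250 bases before the RefSeq start of the gene (GRCh38.p14), written on the strand of the gene. The windows are chr19:10270870-10271119 on the plus strand, chr14:35404750-35404999 on the minus strand, chr6:137867009-137867258 on the plus strand and chr2:227813592-227813841 on the plus strand. Capitals mark matches to the letters GGNNNTTCC on either strand, a loose form of the NF-kB site.
ICAM1: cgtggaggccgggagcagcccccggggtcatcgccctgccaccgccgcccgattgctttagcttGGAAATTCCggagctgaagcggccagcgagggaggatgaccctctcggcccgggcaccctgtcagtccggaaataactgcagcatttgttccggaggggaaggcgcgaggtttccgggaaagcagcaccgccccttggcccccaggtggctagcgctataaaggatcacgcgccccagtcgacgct
NFKBIA: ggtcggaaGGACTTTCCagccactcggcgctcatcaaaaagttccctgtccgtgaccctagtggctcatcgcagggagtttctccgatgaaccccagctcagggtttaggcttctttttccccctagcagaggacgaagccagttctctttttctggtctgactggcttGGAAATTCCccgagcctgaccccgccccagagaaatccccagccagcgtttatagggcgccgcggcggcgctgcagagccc
TNFAIP3: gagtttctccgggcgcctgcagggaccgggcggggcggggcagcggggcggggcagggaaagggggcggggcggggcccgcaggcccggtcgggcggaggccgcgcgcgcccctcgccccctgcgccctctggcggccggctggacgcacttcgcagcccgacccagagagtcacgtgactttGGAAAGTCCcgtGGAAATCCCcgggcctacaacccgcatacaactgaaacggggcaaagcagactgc
CCL20: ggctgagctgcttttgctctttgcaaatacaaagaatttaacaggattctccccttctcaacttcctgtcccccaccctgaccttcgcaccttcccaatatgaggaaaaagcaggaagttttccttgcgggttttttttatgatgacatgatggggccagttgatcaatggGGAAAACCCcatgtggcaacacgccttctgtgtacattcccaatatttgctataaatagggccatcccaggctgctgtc
The match of ICAM1 begins 186 bases before the start, those of NFKBIA 242 and 81 bases before, those of TNFAIP3 67 and 55 bases before, and that of CCL20 79 bases before. Over all 35116 windows of this length, 17.1% held GGNNNTTCC, and 25.3% of the 9800 tested genes with a window did. It was found for 24% of the shared rises, 27.2% of the shared falls and 18 of the 26 shared falls of both NF-kB lists with a window (69.2%). The AP-1 letters TGACTCA were in 4.2% of all windows and 4.07% of the tested genes with a window. They were found for 4.11% of the shared rises, 4.23% of the shared falls and 3 of the same 26 (11.5%). In the shares of genes, a gene counted if any of its windows held the letters. The 26 come from lists chosen for their link to NF-kB, so a high share could hold whether or not members fell. List members that did not fall were not compared. These shares are descriptions with no test, and a match is not evidence of binding.

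Interferon-stimulated genes, sensors of double-stranded RNA and class I antigen presentation bear on a transfected RNA, and the median of each of these lists lay below the controls in both knockdowns. Of 40 listed interferon-stimulated genes 26 were tested, 20 fell (13 shared), 1 rose and 5 did not pass, with medians of -0.36 pooled, -0.32 in siSIRT6 and -0.55 in siKDM5C. IRF1, a transcription factor of the interferon response, was at 11.7, 11.2 and 10.8 FPKM in control, 4.48, 4.56 and 4.78 in siSIRT6 and 2.43, 2.59 and 2.68 in siKDM5C (pooled -1.45, SE 0.05). IFIT2, which binds viral RNA, was at 20.5 to 22.8 FPKM in control, had a mean of 9.55 ± 0.494 in siSIRT6 and was at 6.06, 6.83 and 6.31 in siKDM5C (pooled -1.37, SE 0.06). IFIT3 was at 9.65, 8.93 and 9.23 FPKM in control, 3.54, 4.22 and 3.76 in siSIRT6 and 1.73, 2.46 and 2.15 in siKDM5C. In each of these the controls were highest and siKDM5C lowest with no overlap, and the knockdowns differed for 19 of the 26. IFIT2 and IFIT3 both overlap LIPA on the opposite strand, and their reads could not be told apart from those of LIPA without the strand. GBP3, a guanylate-binding protein, fell from 6.57 ± 0.525 FPKM to 4.95 ± 0.303 and 2.04 ± 0.0469. The 1 rise was MX2, an antiviral GTPase, from 0.892 ± 0.0607 FPKM to 1.18 ± 0.0561 and 1.61 ± 0.0891. MX2 passed the filter only through the knockdown libraries, since all controls were below 1 FPKM, and its difference of 0.33 was 0.57 with a pseudocount of 0.1. The 14 untested members were below the filter.

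Of 18 tested genes of class I antigen presentation, 11 fell (10 shared), 3 rose and 4 did not pass (medians -0.47, -0.31 and -0.44). B2M, the invariant light chain of class I molecules, was at 27.0, 28.2 and 25.3 FPKM in control, 18.0, 17.7 and 18.4 in siSIRT6 and 11.5, 13.4 and 11.6 in siKDM5C. The immunoproteasome subunit gene PSMB9 went from 8.60 ± 1.17 FPKM to 4.04 ± 0.192 and 2.17 ± 0.425, PSMB10 from 11.6 ± 1.53 to 6.78 ± 0.435 and 3.79 ± 0.906, and the peptide transporter gene TAP1 from 20.7 ± 0.408 to 18.0 ± 0.838 and 10.4 ± 1.15. All 4 were lower in siKDM5C than in siSIRT6. PSMB9 overlaps TAP1 on the opposite strand, so reads of PSMB9 and TAP1 could not be told apart without the strand. The shared rises were CALR and PDIA3, general chaperones of the endoplasmic reticulum, from 196 ± 16.4 to 258 ± 7.49 and 253 ± 18.8 FPKM and from 96.6 ± 3.09 to 113 ± 1.97 and 121 ± 9.84 FPKM. Reads of HLA genes can be split among near-identical copies, and their values are uncertain for that reason.

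Of 15 tested sensors of double-stranded RNA and their adaptors, 9 fell (8 shared), 3 rose and 3 did not pass (medians -0.32, -0.28 and -0.38). IFIH1, the sensor MDA5, was at 10.7, 10.7 and 8.83 FPKM in control, 5.94, 5.89 and 6.12 in siSIRT6 and 2.46, 3.01 and 2.69 in siKDM5C. TRIM25, a ubiquitin ligase that acts with RIG-I, was at 24.8, 24.4 and 23.4 FPKM in control, 14.7, 14.5 and 14.3 in siSIRT6 and 14.6, 15.3 and 14.8 in siKDM5C. The 3 rises were all shared. They were the mitochondrial adaptor gene MAVS, from 10.6 ± 0.472 FPKM to 17.2 ± 0.403 and 13.4 ± 0.676, the ligase gene RNF135, from 6.09 ± 0.386 to 10.7 ± 0.620 and 9.53 ± 1.23, and NLRX1, a regulator of MAVS, from 4.16 ± 0.280 to 5.63 ± 0.316 and 7.55 ± 0.777.

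Among genes of the RNA interference machinery, which uses siRNAs, 11 of 17 tested fell (8 shared), 3 rose and 3 did not pass (medians -0.21, -0.07 and -0.34). The Argonaute gene AGO3 was at 2.85, 2.96 and 2.41 FPKM in control, 1.32, 1.53 and 1.23 in siSIRT6 and 1.28, 1.64 and 1.35 in siKDM5C. AGO4 was at 4.18, 4.37 and 4.33 FPKM in control, 2.55, 2.23 and 2.19 in siSIRT6 and 3.16, 3.22 and 3.03 in siKDM5C. AGO2, the slicing Argonaute, named here for its role and outside the rule for named genes, went from 12.7 ± 1.06 FPKM to 6.41 ± 0.247 and 11.2 ± 1.03, so it was a pooled fall without being shared. DROSHA, the nuclear nuclease that cuts microRNA precursors, rose from 4.69, 4.70 and 4.63 FPKM to 8.24, 7.67 and 7.71 in siSIRT6 and 8.65, 8.54 and 7.42 in siKDM5C. The other rises were the chaperone genes FKBP4 (pooled 0.90, SE 0.05) and HSP90AA1 (0.42, SE 0.06).

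Cyclins of the D type drive the CDK4 and CDK6 kinases, and CDKN1A and CDKN1B encode inhibitors of cell cycle kinases. Of 12 tested genes of this group 4 fell, all shared, 1 rose and 7 did not pass (median -0.05), which is 33.3% falling and 8.33% rising against 28.3% and 25.7% of all genes. Beside the fall of CCND1, the inhibitor gene CDKN1A, known as p21, was at 131, 127 and 135 FPKM in control, 52.9, 52.8 and 54.1 in siSIRT6 and 55.5, 53.5 and 58.3 in siKDM5C (pooled -1.25, SE 0.04). CDKN1B, p27, was at 6.94, 6.63 and 6.47 FPKM in control, 3.90, 4.14 and 4.35 in siSIRT6 and 4.39, 4.32 and 4.35 in siKDM5C. The driver and both inhibitors were thus lower together, and the knockdowns did not pass the direct test for CDKN1A (-0.06 log2 for siSIRT6 minus siKDM5C, SE 0.05) or CDKN1B (-0.06 log2). CDK4 fell by 0.26, and the RB relative RBL1 rose by 0.39 log2.

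PANC-1 carries a mutant p53, the transcription factor of DNA damage. Of 28 tested p53 target genes 18 fell (12 shared), 3 rose and 7 did not pass (medians -0.28, -0.34 and -0.33). The death receptor genes TNFRSF10A and TNFRSF10B went from 9.60 ± 0.253 FPKM to 6.13 ± 0.112 and 5.26 ± 0.269, and from 39.5 ± 2.20 FPKM to 21.5 ± 0.307 and 29.5 ± 1.32. Against the list, the DNA repair gene XPC was at 2.71, 2.91 and 2.62 FPKM in control, 5.94, 6.17 and 5.81 in siSIRT6 and 5.91, 5.52 and 6.20 in siKDM5C, and the kinase gene PLK2 rose by 0.66 log2.

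In mitosis and replication, pooled calls were mostly not shared. Of 38 tested genes of G2/M and mitosis, 31 fell in the pooled contrast but only 10 of these had all 6 knockdown libraries below all controls. The list's median was -0.48 pooled, -0.87 in siSIRT6 and -0.06 in siKDM5C, and the knockdowns differed for 35 of the 38. PLK1, a kinase needed to enter mitosis, went from 24.4 ± 1.43 FPKM to 8.30 ± 0.161 and 20.1 ± 0.522. An exception was KIF4A, a chromokinesin, with 15.7, 15.9 and 16.1 FPKM in control, 8.41, 8.61 and 8.74 in siSIRT6 and 9.50, 8.78 and 8.51 in siKDM5C, where the knockdowns did not pass the direct test (-0.05 log2, SE 0.05). KIF23, a kinesin of the cytokinetic bridge, fell from 15.7 ± 0.314 FPKM to 7.68 ± 0.193 and 10.4 ± 0.378. Of 41 tested genes of G1/S and replication, 16 fell (4 shared), 6 rose (2 shared) and 19 did not pass, with medians of -0.07 pooled, -0.38 in siSIRT6 and 0.19 in siKDM5C. The shared falls were RFC3, a clamp loader subunit (pooled -0.87), E2F3 (-0.61), the helicase gene MCM2 (-0.40) and UHRF1, a factor of DNA methylation upkeep (-0.40), and the shared rises were E2F1 (0.57) and E2F7 (0.51).

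The extracellular matrix is the scaffold of collagens, laminins and glycoproteins around cells. Of 37 listed collagens, laminins and other matrix genes 25 were tested, 18 rose (15 shared), 2 fell and 5 did not pass, with medians of 0.35 pooled, 0.43 in siSIRT6 and 0.35 in siKDM5C. In 4 of the 25 all controls were below 1 FPKM, so those members could enter only by being higher after knockdown. COL5A1, a fibrillar collagen chain, went from 5.20 ± 0.219 FPKM to 24.5 ± 0.674 and 14.1 ± 0.722. Its partner chain COL5A2 was at 26.1, 24.5 and 21.4 FPKM in control, 104, 102 and 105 in siSIRT6 and 32.4, 35.5 and 35.7 in siKDM5C. COL13A1, a transmembrane collagen, went from 1.20 ± 0.0970 FPKM to 3.82 ± 0.203 and 4.57 ± 0.140. The collagen V chains were higher in siSIRT6, COL13A1 in siKDM5C, and in all 3 the controls were lowest without overlap. The 2 falls, LAMA5 and COL16A1, were not shared and lost their calls in some alternatives. The fibroblast marker list, which holds matrix genes, summed to 16.0 to 17.0 FPKM in control, 42.6 to 44.8 in siSIRT6 and 16.0 to 18.1 in siKDM5C, with 4 of its 6 genes below 1 FPKM in every library, and its part in these values was not tested.

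Of 33 tested actomyosin and focal adhesion genes 20 rose (14 shared), 4 fell (2 shared) and 9 did not pass (medians 0.20, 0.19 and 0.27). MYH9, the heavy chain of non-muscle myosin IIA, was at 87.1, 82.2 and 83.4 FPKM in control, 236, 234 and 241 in siSIRT6 and 201, 203 and 215 in siKDM5C (pooled 1.38, SE 0.04). AKAP12, a scaffold for protein kinases, went from 51.1 ± 1.61 FPKM to 102 ± 1.55 and 243 ± 14.5. TPM1 went from 9.78 ± 0.337 FPKM to 25.0 ± 0.181 and 13.8 ± 0.550. MYH9, AKAP12 and TPM1 were higher in all 6 knockdown libraries than in the controls. The shared falls were VCL, for vinculin (-0.26, SE 0.04), and ZYX, for zyxin (-0.86, SE 0.17). The other falls were the myosin light chain gene MYL12B (-0.15) and PXN, for paxillin (-0.17), which were not shared and lost their calls in some alternatives. Tropomyosins are close copies of one another, so reads between them may be split.

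Of 21 tested mesenchymal genes 9 rose (6 shared), 2 fell (1 shared) and 10 did not pass (medians 0.17, 0.18 and 0.13). MMP2, a gelatinase, was at 17.4, 17.3 and 18.6 FPKM in control, 56.4, 54.9 and 57.1 in siSIRT6 and 31.2, 29.5 and 33.0 in siKDM5C. Of 25 neuronal and neuroendocrine genes only 9 passed the filter, 2 of them with all controls below 1 FPKM. Among these 9, 7 rose (5 shared), 1 fell and 1 did not pass, and the knockdowns differed for all 9. Their median of 0.70 was 0.01 over the list without the filter. SCG2, a secretogranin, was at 0.682, 1.16 and 0.790 FPKM in control, 5.72, 6.03 and 5.88 in siSIRT6 and 2.32, 1.85 and 1.98 in siKDM5C, and TUBB3, a neuronal tubulin, went from 8.60 ± 0.507 FPKM to 23.4 ± 0.881 and 13.7 ± 1.48.

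Netrins, semaphorins, plexins and ephrins guide axons and also shape tumour cells. Of 28 tested genes 11 rose, all shared, and 7 fell (6 shared), with a median of 0.06 that became -0.05 once the trend with GC content and length was removed. Of the 28, 39.3% rose and 25.0% fell, against 25.7% and 28.3% of all genes tested. Calls in both directions were thus also seen over all genes. Rises were more frequent in this list and falls less frequent, and no test of the list was run. Beside NTN4, the receptor gene NRP1 rose from 6.69, 6.54 and 6.83 FPKM to 9.85, 9.74 and 9.87 in siSIRT6 and 12.8, 13.2 and 12.1 in siKDM5C, the ligand gene SEMA3A by 0.99 and the receptor gene EPHB2 by 0.72 log2. The ephrin genes EFNB1 and EFNA1 went from 8.60 ± 0.656 FPKM to 5.24 ± 0.392 and 3.45 ± 0.504, and from 16.5 ± 0.574 FPKM to 9.53 ± 0.942 and 8.14 ± 1.36.

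Autophagy begins with the ULK1 kinase and the WIPI proteins and ends in the lysosome. Of 40 tested genes 17 rose (15 shared), 9 fell (4 shared) and 14 did not pass (medians 0.07, 0.14 and 0.12). That is 42.5% rising and 22.5% falling, against 25.7% and 28.3% of all genes, so falls were not more frequent than over all genes. WIPI2 was at 5.72, 5.93 and 5.83 FPKM in control, 11.2, 11.5 and 11.5 in siSIRT6 and 13.7, 14.1 and 14.5 in siKDM5C. ULK1 was at 25.1, 26.1 and 26.0 FPKM in control, 45.4, 43.9 and 44.0 in siSIRT6 and 35.4, 36.1 and 39.7 in siKDM5C. GAA, the lysosomal glucosidase, was at 4.20, 4.18 and 4.19 FPKM in control, 8.40, 8.22 and 8.28 in siSIRT6 and 7.77, 8.27 and 9.30 in siKDM5C. In these 3 genes the controls were lowest without overlap. Of the conjugation genes that attach LC3 to membranes, ATG3 (-0.24), ATG5 (-0.34) and ATG12 (-0.55) were shared falls and ATG7 (-0.27) a fall that was not shared. The lysosomal enzyme genes GLA (-0.40) and NEU1 (-0.25) and the transcription factor genes MITF (-0.28) and TFE3 (-0.16) fell as well without being shared, and TFE3 lost its call in some alternatives. The receptor gene SQSTM1, also a shared fall, had 87.9, 122 and 85.6 FPKM in control, and its difference of -0.45 was -0.29 without control replicate 2.

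**Figure D4:**
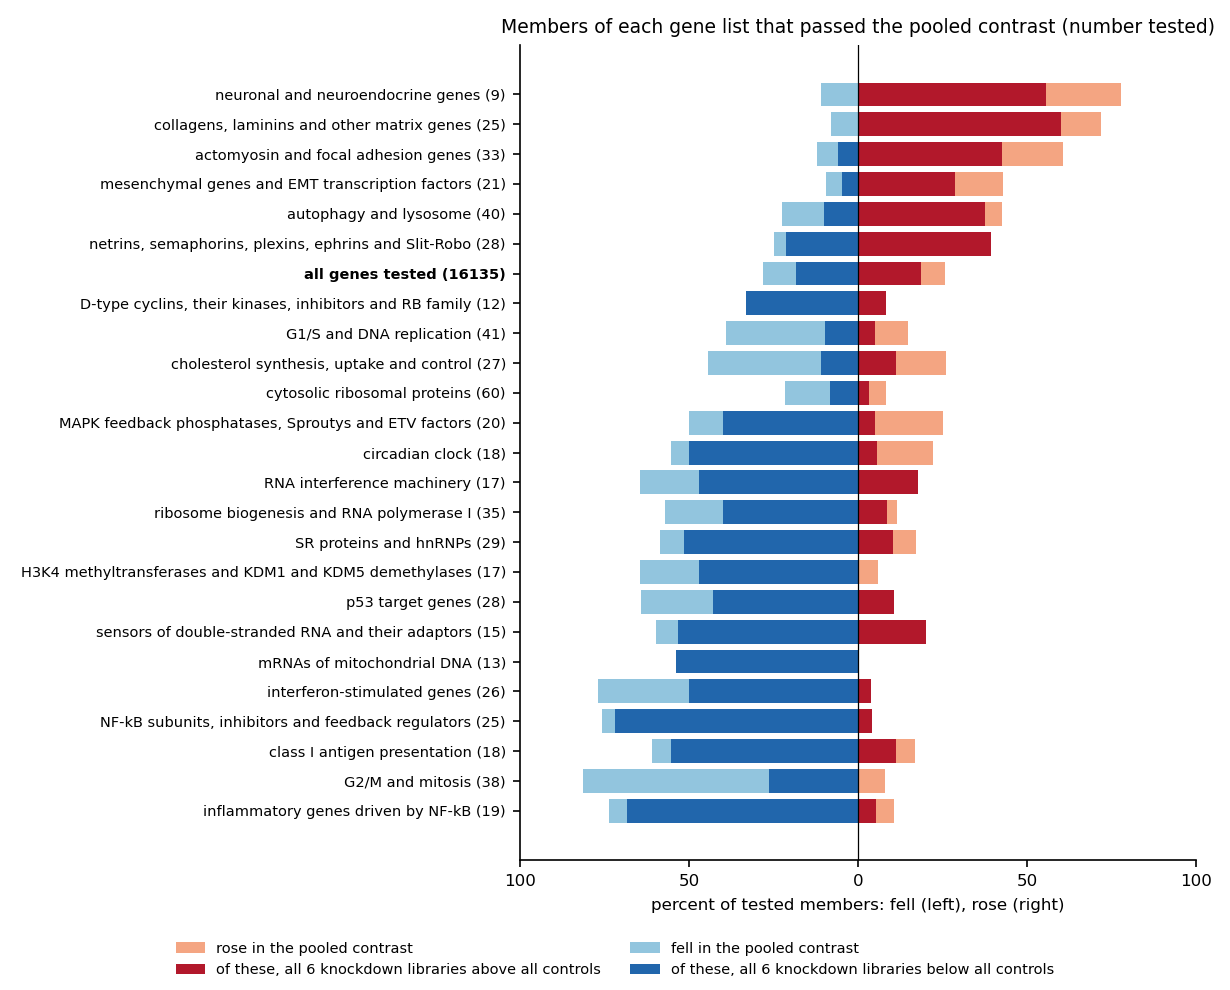
Bars give, for each gene list, the percentage of tested members that fell (left) or rose (right) in the pooled contrast, with the dark part marking members whose 6 knockdown libraries lay on 1 side of all controls. Over all genes 25.7% rose and 28.3% fell, and the G2/M list combines many falls with a small dark part.

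SR proteins and hnRNPs bind transcripts and steer splicing. Of 29 tested 17 fell (15 shared), 5 rose (3 shared) and 7 did not pass (medians -0.26, -0.36 and -0.17). SF3B1, the core subunit of the U2 particle, was at 47.6, 47.0 and 43.1 FPKM in control, 33.0, 32.2 and 30.9 in siSIRT6 and 25.9, 28.0 and 24.4 in siKDM5C. HNRNPF was at 138, 134 and 131 FPKM in control, 59.1, 58.2 and 60.9 in siSIRT6 and 108, 107 and 116 in siKDM5C. SRSF5 was at 18.3, 19.2 and 18.4 FPKM in control, 12.4, 12.7 and 10.9 in siSIRT6 and 12.9, 13.2 and 12.4 in siKDM5C, and SRSF1 fell by 0.35 log2. Each lay below the controls in all 6 libraries, with HNRNPF lower in siSIRT6 and SF3B1 lower in siKDM5C. HNRNPDL (0.34) and HNRNPH3 (0.24) were shared rises.

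Of 35 tested genes of ribosome biogenesis 20 fell (14 shared), 4 rose (3 shared) and 11 did not pass (medians -0.21, -0.23 and -0.13). NOP58, a core protein of box C/D particles, went from 46.7 ± 1.30 FPKM to 24.6 ± 0.430 and 28.0 ± 3.51. The opposite was seen for NOLC1, a chaperone of such particles, at 18.2, 18.1 and 18.5 FPKM in control, 39.3, 40.7 and 39.2 in siSIRT6 and 54.9, 57.3 and 52.6 in siKDM5C. Of the 60 cytosolic ribosomal protein genes 42 did not pass, 13 fell (5 shared) and 5 rose (2 shared), and many have processed pseudogenes that can take reads. That is 21.7% falling and 8.33% rising, both below the 28.3% and 25.7% of all genes. RPL11 rose from 88.4 ± 3.59 FPKM to 119 ± 5.37 and 129 ± 17.3, and RPL18 fell from 67.8 ± 4.27 FPKM to 47.0 ± 2.02 and 51.7 ± 6.95. Of the 13 mRNAs of mitochondrial DNA 7 fell, all shared, and 6 did not pass (medians -0.33, -0.26 and -0.42). MT-ND2 was at 2361, 2461 and 2904 FPKM in control, 1890.5, 1866 and 1808 in siSIRT6 and 1531, 1546 and 1274 in siKDM5C, and control replicate 3 was the highest library for it.

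Enzymes of histone H3 lysine 4 methylation are the setting in which KDM5C acts. Of 17 tested genes 11 fell (8 shared), 1 rose and 5 did not pass (medians -0.27, -0.21 and -0.11), with KDM5C itself among the falls. KDM5B, a sister demethylase, was at 6.80, 6.84 and 6.75 FPKM in control, 5.87, 5.68 and 5.72 in siSIRT6 and 5.16, 5.46 and 5.07 in siKDM5C. KDM1A, another demethylase of this residue, went from 24.9 ± 0.326 FPKM to 17.9 ± 0.357 and 22.6 ± 0.692, and ASH2L, a subunit of the methyltransferase complexes, from 4.22 ± 0.311 FPKM to 1.47 ± 0.141 and 3.83 ± 0.219. KDM5B and KDM1A were below all controls in every knockdown library, and the ASH2L fall was carried by siSIRT6.

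Of 18 tested circadian clock genes 10 fell (9 shared), 4 rose (1 shared) and 4 did not pass (medians -0.19, -0.20 and -0.24). BMAL2, a clock activator, was at 32.4, 33.4 and 28.7 FPKM in control, 22.6, 22.7 and 22.8 in siSIRT6 and 21.1, 22.8 and 19.5 in siKDM5C. PER1, a clock repressor, went from 7.29 ± 0.320 FPKM to 3.85 ± 0.195 and 5.81 ± 0.686, while NPAS2, an activator, rose from 20.5 ± 1.54 FPKM to 25.2 ± 0.752 and 24.4 ± 1.64. The output factor DBP, from 1.58 ± 0.0327 FPKM to 0.914 ± 0.0859 and 0.869 ± 0.0888, passed the filter only through the controls, and its difference of -0.45 was -0.76 with a pseudocount of 0.1. With a minimum of 5 FPKM the median of the clock list was -0.03. The MAPK list holds feedback phosphatases and Sproutys, which dampen signals from growth factor receptors. It also holds ETV transcription factors and CCND1, which was described above. Of its 20 tested genes 10 fell (8 shared, with CCND1 among them), 5 rose (1 shared) and 5 did not pass (medians -0.19, -0.20 and -0.18). SPRY4 was at 24.7, 25.8 and 23.7 FPKM in control, 17.1, 17.2 and 16.4 in siSIRT6 and 15.5, 16.2 and 16.4 in siKDM5C, and the phosphatase gene DUSP6 went from 9.26 ± 0.782 FPKM to 4.91 ± 0.356 and 6.58 ± 0.301. DUSP4, another phosphatase gene, was the shared rise, from 0.910 ± 0.0232 FPKM to 1.46 ± 0.169 and 1.35 ± 0.0859. All its controls were below 1 FPKM, so it could be tested only by being higher after knockdown, and its difference of 0.33 was 0.57 with a pseudocount of 0.1.

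Cholesterol genes showed how pooling can hide opposite changes. Of 27 tested genes 12 fell and 7 rose in the pooled contrast, but only 3 falls and 3 rises were shared, and the medians were -0.09 pooled, 0.23 in siSIRT6 and -0.30 in siKDM5C. The knockdowns differed for 23 of the 27. The shared rises included INSIG1, which retains the SREBP activators, and PMVK, a kinase of the mevalonate pathway. INSIG1 was at 23.5, 23.8 and 21.2 FPKM in control, 46.3, 46.3 and 47.6 in siSIRT6 and 32.7, 39.2 and 32.8 in siKDM5C. STARD4, a carrier of sterols, was a shared fall from 6.20 ± 0.800 FPKM to 4.43 ± 0.343 and 1.94 ± 0.266.

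**Figure D5:**
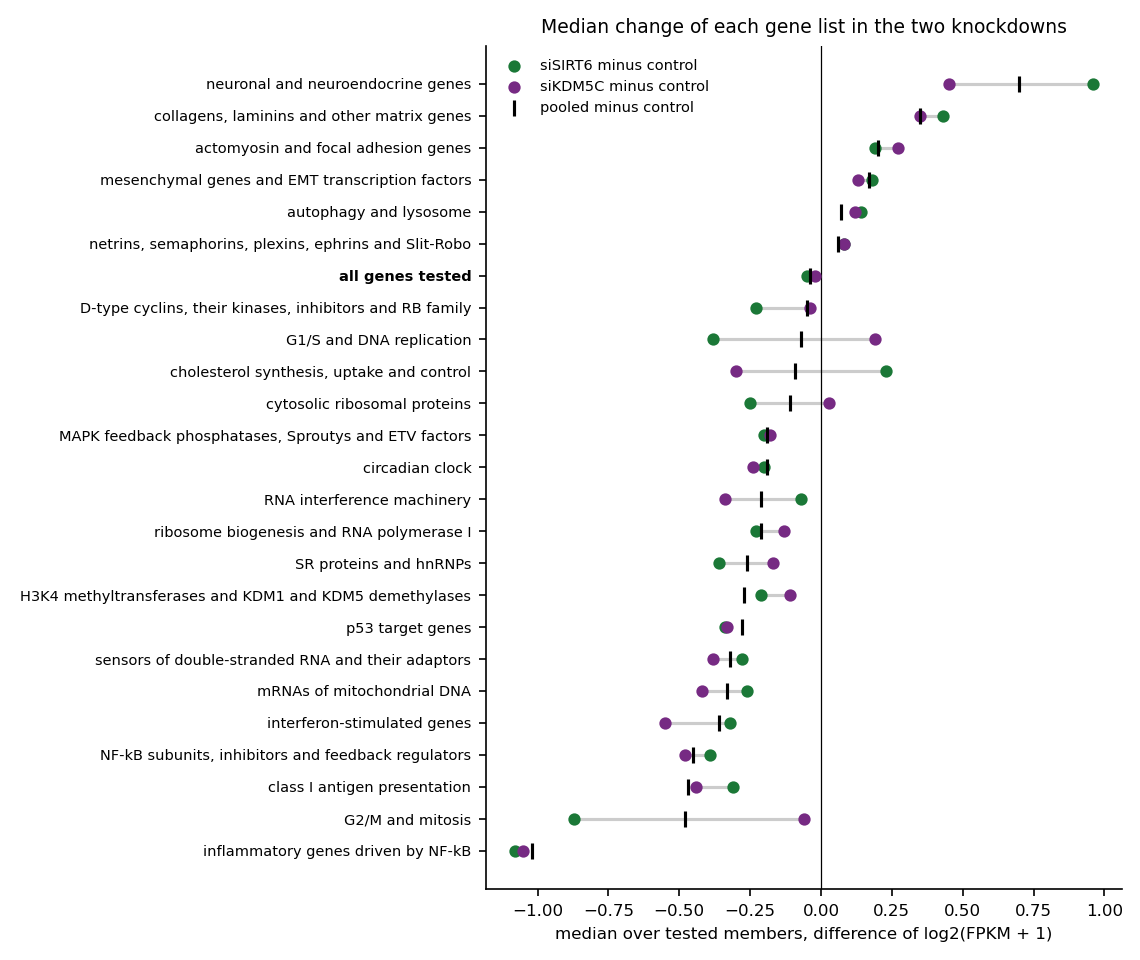
Points give the median difference from control over the tested members of each list in siSIRT6 (green) and siKDM5C (purple), and ticks give the pooled median, on the log2(FPKM + 1) scale. The green and purple points lie close together for the NF-kB, p53 and matrix lists and far apart for G2/M (-0.87 and -0.06), G1/S (-0.38 and 0.19) and cholesterol (0.23 and -0.30).

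Some pooled values came mainly from 1 knockdown. THBD, thrombomodulin, was at 0.857, 0.857 and 0.743 FPKM in control, 2.10, 2.15 and 1.97 in siSIRT6 and 18.7, 22.5 and 21.3 in siKDM5C, so it counted as shared (pooled 2.17) although the knockdowns differed by 2.82 log2, with siKDM5C higher. FOXS1, a forkhead factor, was at 0.802, 0.443 and 0.658 FPKM in control, 6.28, 5.21 and 6.36 in siSIRT6 and 0.402, 0.208 and 0.561 in siKDM5C. MMP14, a membrane-bound protease, went from 1.31 ± 0.0985 FPKM to 1.13 ± 0.0778 and 6.28 ± 0.147. All controls of THBD and FOXS1 were below 1 FPKM, so these genes entered the test through knockdown libraries alone. FOXS1 and MMP14 passed the pooled test as rises, at 0.93 and 0.77 log2, and were not above the controls in the other knockdown. RAB27B, a GTPase of exosome release, rose from 4.55 ± 0.703 FPKM to 14.3 ± 0.472 in siSIRT6 and stood at 3.25 ± 1.15 in siKDM5C, and leaving out control replicate 3 ended its pooled call (0.44, adjusted p = 0.0631, limma). Among the falls, PAPOLA, a poly(A) polymerase, was at 13.1, 13.6 and 13.0 FPKM in control, 12.2, 12.5 and 12.4 in siSIRT6 and 1.80, 1.76 and 1.53 in siKDM5C. C15orf48 was at 122, 123 and 121 FPKM in control, 120.3, 126 and 125 in siSIRT6 and 32.6, 27.2 and 28.9 in siKDM5C. POLE3, a subunit of DNA polymerase epsilon, was at 25.9, 26.2 and 25.8 FPKM in control, 6.41, 6.77 and 6.51 in siSIRT6 and 32.1, 25.9 and 28.3 in siKDM5C. These pooled falls of 1.25, 1.00 and 0.85 log2 thus describe 1 knockdown each. PAPOLA still counted as shared, since its siSIRT6 libraries lay just below the controls (-0.09 log2, adjusted p = 0.179, limma).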

How the data were processed

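RNA-seq was made from total RNA of 9 PANC-1 libraries with a stranded mRNA kit, per the labels' protocols. The authors deposited 1 FPKM value per gene and library. Trimmomatic, HISAT2, Cufflinks and HTSeq and the build hg38 are named in the submitters' processing notes, while versions, annotation and the strand setting of the counting were not given in the sources used here. FPKM values were whole multiples of 1 read for 100.0% of genes (tolerance 0.01 read), which gave the depth.

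Of 36753 identifiers, 36659 matched the gene name table and 35564 GENCODE release 29. A gene was kept if 3 or more libraries reached 1 FPKM. log2(FPKM + 1) was fitted with limma 3.58.1 (R 4.3.3, trended variance, 1 mean per group, 6 residual degrees of freedom), with Benjamini-Hochberg adjustment over 16135 genes and a threshold of 0.05. Fold changes on this scale understate the change of low genes. The 4 contrasts were pooled, each knockdown against control, and siSIRT6 minus siKDM5C. The 50 gene lists held 1234 entries, of which 11 had no FPKM value. Entries that did not reach the filter were not tested either. The text describes 24 lists by their counts and medians.

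Members and lists were chosen with earlier results of these data known. Named genes were SIRT6 and KDM5C, the 15 largest shared changes each way that passed in each knockdown (protein coding, mean of at least 2 FPKM over the 9 libraries, ranked by the smaller of the knockdown changes), the 4 pooled calls each way with the largest difference between the knockdowns, up to 4 members per described list by adjusted p, and members that moved against their list. The fit was tested on simulated data. There were 19 alternatives, 2 of them chosen after seeing the data. Reads of multigene families (HLA, tropomyosin, tubulin, ribosomal protein genes) may be split between copies. Some results for single named genes are not reported here.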

Additional observations from a re-analysis of the deposited data

Results flagged for a closer look

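In 10 named genes every siSIRT6 library lay on 1 side of all 3 controls and every siKDM5C library on the other, and the direct test of siSIRT6 minus siKDM5C passed (limma, adjusted over all genes). The pooled contrast therefore averaged values on opposite sides of the controls in these genes. In the cell cycle lists, the differences were -1.29 for the mitotic kinesin gene KIF2C (adjusted p = 1.11e-06, limma), 0.85 for the phosphatase gene CDC25B (adjusted p = 9.24e-06) and -1.36 for the transcription factor gene MYBL2 (adjusted p = 1.75e-06). KIF2C, for example, went from 23.0 ± 0.699 FPKM to 10.1 ± 0.106 and 26.3 ± 1.01 (SD, n = 3). CDC25B was the 1 of the 10 that was higher in siSIRT6.

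Among replication genes the differences were -0.84 for GINS3 of the replicative helicase, -0.78 for RRM1 and -1.01 for RRM2, the subunits of ribonucleotide reductase, and -1.27 for DTL, a ubiquitin ligase adaptor, with adjusted p from 1.10e-05 to 6.29e-05 (limma). DTL was at 6.76, 6.61 and 6.14 FPKM in control, 5.62, 5.46 and 5.51 in siSIRT6 and 15.2, 16.3 and 13.0 in siKDM5C. HNRNPA1 differed by -0.63, the phosphatase gene DUSP5 by -0.85 and the Sprouty gene SPRY2 by -1.23. SPRY2 was at 11.1, 11.3 and 11.2 FPKM in control, 8.83, 9.54 and 9.67 in siSIRT6 and 23.6, 22.9 and 23.1 in siKDM5C. Against control, the lower siSIRT6 values did not pass for RRM1 (-0.13, adjusted p = 0.143, limma) or HNRNPA1 (-0.11, adjusted p = 0.0694). They did not pass for DTL (-0.20, adjusted p = 0.0583) or GINS3 (-0.16, adjusted p = 0.0538) either, so a siSIRT6 fall is not established there.

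Over whole lists, the median of the G1/S genes lay below the controls in every siSIRT6 library and above them in every siKDM5C library, with a median difference of -0.60. The cholesterol list did the opposite, with 0.50. These medians of the differences between the knockdowns were not tested.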

How the results depend on the processing

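A minimum of 5 FPKM in 3 libraries left 9446 genes to test, and the counts were 2737 higher, 2911 lower, 2003 shared higher and 1895 shared lower, and 2001 and 1889 of these shared genes were shared in the reported fit too. Under the other alternatives all 5 counts stayed within 1.5 times. Leaving out each library in turn gave 3603 to 4207 higher, 3522 to 4757 lower, 2970 to 3135 shared higher, 2756 to 3332 shared lower and 4820 to 6873 genes that differed between the knockdowns. Alternatives chosen after seeing the data gave 3883 higher and 5083 lower without genes of mitochondrial DNA, and 4174 and 5133 with the trend with GC content and length removed. Median-of-ratios scaling gave 4375 and 4287, so which direction held more genes depended on the scaling. With the replicate number as a block the counts were 4101, 4537, 2974, 2947 and 6386. Deviations from the group means correlated at -0.229 to 0.252 between same-numbered libraries and at -0.353 to 0.426 between differently numbered ones. With 3 libraries per group these values cannot show whether equal numbers mark pairs. Of 194 named genes, 29 lost their call in at least 1 of the 19 alternatives. The other 165 kept it in every alternative in which they were tested, and none of the 194 changed sign. Not every named gene was tested in all 19. For example, LAMA4 could not reach the minimum of 5 FPKM, and genes of mitochondrial DNA were absent from the fit without them. Medians of described lists moved by more than the spread between replicates in 86 cases and by less in 369, and axon guidance (0.06 to -0.05 with the GC and length trend removed) was the list whose median changed sign. Control replicate 3 and the siKDM5C libraries differed more from their group than the others (chi-square per gene of 9.88 to 16.3, against 1.93 to 3.02), which limits small changes.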

Other observations

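Of the other lists examined, 21 had pooled medians between -0.26 and 0.19. Among the BCL2 family and execution genes of apoptosis, 13 of 23 tested fell (6 shared, 56.5% falling) and 5 rose, all shared (21.7%). In glycolysis and the hypoxia response 11 of 29 rose (10 shared) and 6 fell (5 shared), which is 37.9% and 20.7% against 25.7% and 28.3% of all genes. Of 40 nuclear-encoded genes of the respiratory chain 26 did not pass, 8 fell and 6 rose, a smaller share of calls than over all genes. No test of these lists was run.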
